A study of Homo sapiens with 3 samples.

Results

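The genes examined here encode the mitochondrial ribosomal proteins (MRP). They were the protein-coding genes whose symbol is MRPL or MRPS followed by a number and, for some, a letter, and 78 of the 26108 listed genes met this rule. By the letter of the symbol, 49 were counted in the large subunit (MRPL) and 29 in the small subunit (MRPS). The cells were LX-2, an established human hepatic stellate cell line, so all values come from 1 line. The study asked how the hormone FGF19 changes stellate cells, and 1 culture was given vehicle, 1 was given recombinant human FGF19 (rhFGF19) at 50 ng/mL and 1 was given rhFGF19 at 100 ng/mL. No other agent or genetic change is given for any of them. These are called the lower and the higher dose below. The titles give these doses, whereas the description of each rhFGF19 sample gives the other dose. The series text gives 24 h of stimulation, and the descriptions give 72 h and 73 h. With 1 library per group, no difference had a replicate check and no test was possible.

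The mitochondrial ribosome translates the few mRNAs that the mitochondrial genome encodes, all of which make subunits of the respiratory chain and ATP synthase. Its proteins are encoded by nuclear genes, made in the cytosol and imported, and most are needed in equal number in each ribosome. The large subunit forms the peptide bond and holds the exit tunnel and the stalk that recruits translation factors, while the small subunit holds the mRNA and the decoding centre.

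Expression was measured by poly(A) RNA sequencing as FPKM, which counts the fragments of a gene per length of its transcript and per fragments of the library. FPKM holds no read counts, so the depth is unknown and no interval could be given. Fold changes are differences of log2(FPKM + 0.1), so those of low genes come out too small. They were computed where the 3 libraries averaged 0.5 FPKM or more, which 12447 genes did, called filtered genes here, and all 78 MRP genes passed. Of these, MRPL42 and MRPL50 were below 0.5 FPKM in vehicle and passed through the rhFGF19 libraries, so their direction was fixed by the filter. The same holds for any filtered gene below 0.5 FPKM in vehicle. Shares and medians of all filtered genes therefore lean toward higher, by an amount that was not tested. The libraries summed to between 276690 and 302243 FPKM, and 8890 genes reached 1 FPKM in vehicle against 10925 and 10894 at 50 and 100 ng/mL. Of 10 stellate or fibroblast markers, 9 reached 1 FPKM in each library and the list summed to between 1132 and 1184, with COL1A2 at most 0.14. Of 5 hepatocyte markers 2 did (SERPINA1 and ALB, list sums from 11.3 to 12.5), with APOA1, TTR and CYP3A4 at most 0.37. Of 3 epithelial, 3 leukocyte and 3 endothelial markers, EPCAM, KRT20, PTPRC and CD3E were not among the listed genes. The others (CDH1, LYZ, PECAM1, CDH5 and VWF) did not reach 1 FPKM. In such bulk samples fewer cells of a type and less RNA per cell cannot be told apart. Both rhFGF19 comparisons share the vehicle library, so they are not independent of each other.

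Over all 78 MRP genes the differences from vehicle went both ways. At 50 ng/mL 40 genes were above vehicle and 38 below, and at 100 ng/mL 41 were above and 37 below. The median log2 fold change was 0.040 at the lower and 0.17 at the higher dose, with values from -1.03 to 2.33 at 50 ng/mL. Over all filtered genes the medians were 0.62 and 0.61, so 50 of the 78 MRP genes lay below the median of all genes at the lower and 49 at the higher dose. More than 2-fold higher were 19 MRP genes (24.4%) at 50 ng/mL, where 39.4% of all filtered genes were, and 20 (25.6%) at 100 ng/mL, where 38.5% of all filtered genes were. Genes low in vehicle that passed only by being higher add to these shares, among the 19 MRPL42 and MRPL50. Of all filtered genes 3563 lay under 1 FPKM in vehicle, but 1526 and 1558 in the rhFGF19 libraries. How much of the gap between MRP and all filtered genes comes from the filter was not tested. The same 19 were higher at both doses, and MRPL33 joined them at 100 ng/mL (8.38, 16.8 and 18.3 FPKM, the 3 values being those of vehicle, the lower and the higher dose here and throughout). More than 2-fold lower were 2 MRP genes at 50 ng/mL, MRPL54 and MRPL28, beside 1.78% of all filtered genes, and 0 at 100 ng/mL, beside 1.58%. The sign of the median depended on the scaling: setting the median ratio of well-expressed genes to 0 gave -0.19 at the lower and -0.048 at the higher dose, and quantile normalization gave -0.10 and -0.034. The split of higher against lower calls moved as well, from 19 and 2 to 19 and 9 at 50 ng/mL, and from 20 and 0 to 18 and 6 at 100 ng/mL, with the median ratio at 0. Of all filtered genes 30.4% were then higher and 6.29% lower at 50 ng/mL, beside 24.4% and 11.5% of the MRP genes. At 100 ng/mL these shares were 29.9% and 4.92%, beside 23.1% and 7.69% of the MRP genes. Under quantile normalization 6 of the 78 MRP genes (7.69%) were more than 2-fold higher at 50 ng/mL beside 9.49% of all filtered genes, and 7 (8.97%) beside 8.68% at 100 ng/mL, so the gap between the shares was nearly closed. Relative to the median of all genes, the median of the MRP genes stood at -0.58 and -0.44 as deposited, and between -0.60 and -0.12 under the other scalings.

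In the large subunit the 12 genes that were more than 2-fold higher at both doses were MRPL39, MRPL1, MRPL50, MRPL30, MRPL3, MRPL35, MRPL32, MRPL47, MRPL42, MRPL45, MRPL19 and MRPL13. MRPL39, a subunit with no bacterial counterpart, had 1.75 FPKM in vehicle, 9.20 at the lower and 9.07 at the higher dose. These are log2 fold changes of 2.33 and 2.31, and the highest of the 78 genes at both doses. MRPL1, a protein of the arm where the spent tRNA leaves the ribosome, had 0.76, 3.04 and 3.39 FPKM (1.87 and 2.02). MRPL50 had 0.47, 1.90 and 2.12 FPKM (1.81 and 1.96), and MRPL30 had 1.08, 3.91 and 3.95 FPKM (1.76 and 1.78). All 4 lay under 2 FPKM in vehicle, and all 4 were above vehicle under the other 3 scalings. For MRPL50 this direction was fixed by the filter, so the scalings could not check it. With the GC trend removed the averages of the 4 genes, 2.32, 1.94, 1.89 and 1.77 as deposited, came to 0.91, 0.46, 0.35 and 0.41. These values stand for a place above genes of like GC content.

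At the other end, MRPL28 had 66.7 FPKM in vehicle, 33.1 at the lower and 35.2 at the higher dose, log2 fold changes of -1.01 and -0.92. MRPL54, which sits near the base of the stalk, had 49.7, 24.3 and 27.8 FPKM (-1.03 and -0.84). MRPL55 had 23.3, 12.1 and 12.8 FPKM (-0.94 and -0.86), and MRPL23, a protein at the mouth of the exit tunnel, had 25.2, 14.3 and 13.5 FPKM (-0.81 and -0.89). In each of these genes both rhFGF19 libraries lay below vehicle and close to each other. By the mean of the 3 libraries, by which levels are ranked here, the most abundant large subunit mRNAs were those of MRPL12, the stalk protein that contacts translation factors (218, 125 and 127 FPKM), MRPL51 (131, 118 and 130 FPKM) and MRPL14, which lies at the face toward the small subunit (171, 101 and 106 FPKM). The least abundant were MRPL42 (0.25, 0.86 and 0.99 FPKM), MRPL50 and MRPL19 (0.66, 2.04 and 1.90 FPKM).

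The extremes of the large subunit differed in the base composition of their mRNA, which the symbol rule did not use. MRPL39 (ENSG00000154719, chromosome 21, 25585656 to 25607517, minus strand) and MRPL28 (ENSG00000086504, chromosome 16, 366969 to 371289, minus strand) are shown by bases 151 to 270 of their coding sequence, from exons of the GENCODE v29 transcript on GRCh38, with every G and C in capitals. The MRPL39 stretch holds 42.5% G or C and the MRPL28 stretch 63.3%.
MRPL39: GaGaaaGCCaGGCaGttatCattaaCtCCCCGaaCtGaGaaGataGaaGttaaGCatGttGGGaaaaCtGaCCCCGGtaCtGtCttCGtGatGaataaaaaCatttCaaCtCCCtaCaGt
MRPL28: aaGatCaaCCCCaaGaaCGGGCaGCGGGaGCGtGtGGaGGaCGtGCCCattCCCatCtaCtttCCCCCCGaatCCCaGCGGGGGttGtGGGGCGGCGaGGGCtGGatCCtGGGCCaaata

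In the small subunit 7 genes were more than 2-fold higher at both doses (MRPS31, MRPS22, MRPS10, MRPS35, MRPS30, MRPS36 and MRPS9), and 0 were more than 2-fold lower at either. MRPS31 had 1.90 FPKM in vehicle, 6.72 at the lower and 5.52 at the higher dose (log2 fold changes of 1.77 and 1.49). MRPS22, a subunit with no bacterial counterpart, had 0.60, 1.94 and 2.18 FPKM (1.54 and 1.70). MRPS10, a protein of the head of the small subunit, had 4.33, 13.5 and 13.4 FPKM (1.62 and 1.61), and MRPS35 had 4.40, 13.1 and 13.2 FPKM (1.55 and 1.57). These 4 genes were thus between 2 and 4 times as high in both rhFGF19 libraries as in vehicle. With the GC trend removed their averages, 1.63, 1.62, 1.61 and 1.56 as deposited, came to 0.16, 0.26, 0.19 and 0.11.

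The lowest fold changes of the small subunit were those of MRPS18A (99.95, 56.95 and 56.8 FPKM, -0.81 at both doses), MRPS24 (82.8, 46.8 and 51.2 FPKM, -0.82 and -0.69), MRPS12 (48.4, 27.7 and 29.7 FPKM, -0.80 and -0.70) and MRPS26 (117, 72.0 and 72.0 FPKM, -0.70 at both doses). MRPS12 is part of the decoding centre, and MRPS24 lies where mRNA enters the ribosome. None of the 4 passed 2-fold. By the mean of the 3 libraries the most abundant small subunit mRNAs were those of MRPS34 (118, 72.9 and 72.9 FPKM), MRPS26 and MRPS18B (91.7, 78.2 and 81.1 FPKM). The least abundant by this mean were MRPS22, MRPS30 (1.43, 4.36 and 3.95 FPKM) and MRPS5 (2.55, 4.58 and 4.22 FPKM, and -0.29 on average with the GC trend removed). In vehicle alone MRPS18A lay above MRPS18B, and MRPS31 and MRPS9 below MRPS5.

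The corresponding stretches of MRPS31 (ENSG00000102738, chromosome 13, 40729128 to 40771190, minus strand) and MRPS18A (ENSG00000096080, chromosome 6, 43671303 to 43687791, minus strand), the highest and the lowest of the small subunit, show the same contrast, with 41.7% and 54.2% G or C.
MRPS31: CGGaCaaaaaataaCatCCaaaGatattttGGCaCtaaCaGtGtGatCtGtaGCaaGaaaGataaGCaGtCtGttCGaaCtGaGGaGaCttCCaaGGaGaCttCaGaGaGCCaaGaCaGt
MRPS18A: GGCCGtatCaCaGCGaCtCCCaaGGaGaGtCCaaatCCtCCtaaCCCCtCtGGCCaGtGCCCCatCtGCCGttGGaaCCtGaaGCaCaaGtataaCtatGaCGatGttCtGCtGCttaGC

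**Figure D1:**
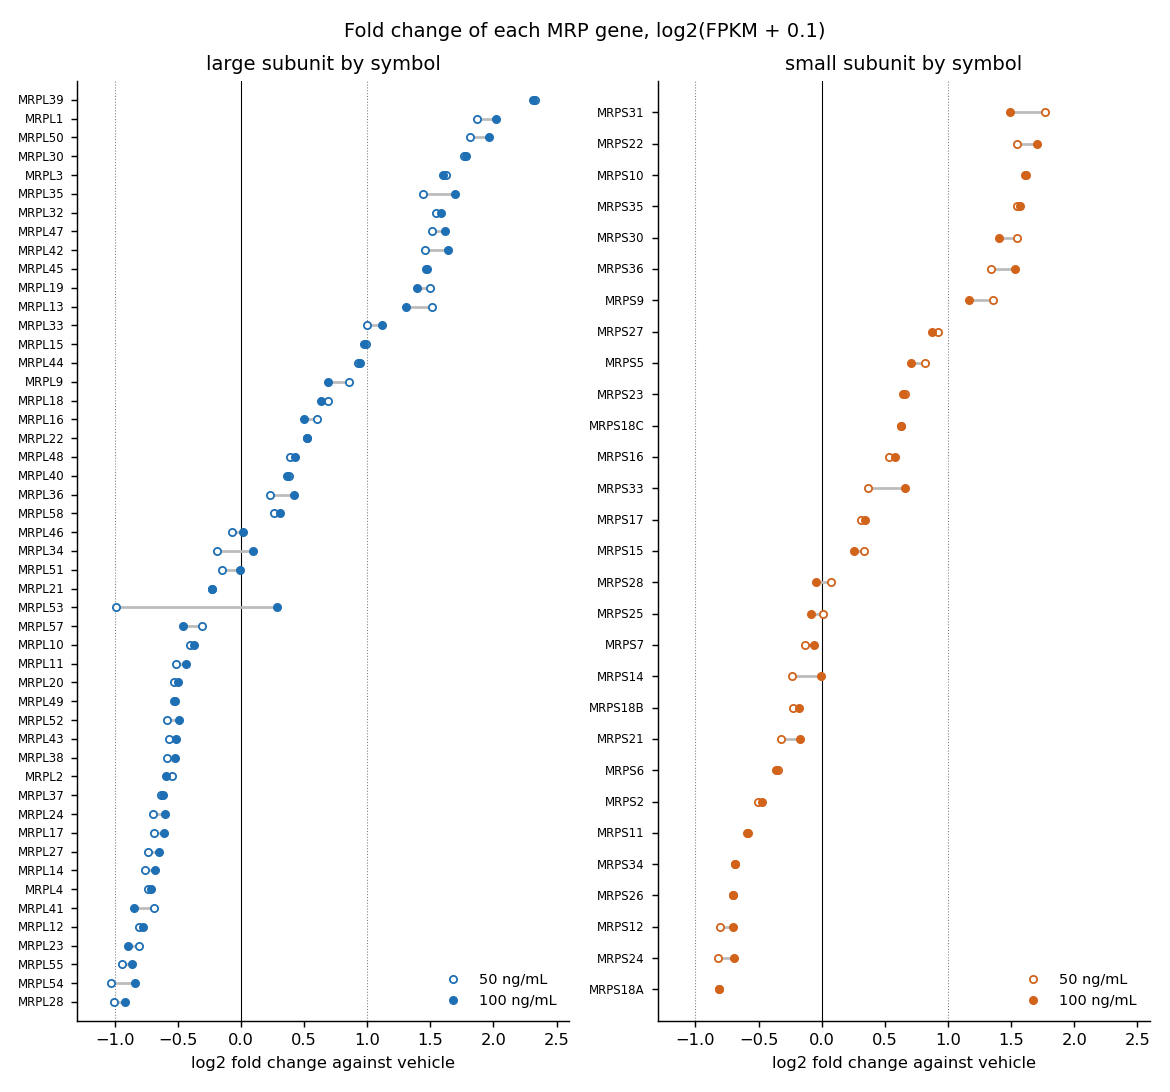
Log2 fold change of each MRP gene against vehicle on the log2(FPKM + 0.1) scale at 50 ng/mL (open circles) and 100 ng/mL (filled circles), with a grey bar joining the 2 values and dotted lines at 2-fold. The values run from -1.03 to 2.33 at 50 ng/mL, and MRPL53 is the only gene whose 2 values differ by more than 2-fold.

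Large and small subunit genes were then set side by side. The median level of the large subunit genes was 23.3 FPKM in vehicle, 20.4 at the lower and 21.1 at the higher dose, and that of the small subunit genes was 9.0, 13.1 and 13.2 FPKM. The median log2 fold change was -0.15 and 0.091 for the large and 0.31 and 0.25 for the small subunit at 50 and 100 ng/mL, a difference of large minus small of -0.46 and -0.16. The small subunit median was above 0 as deposited but not under quantile normalization, which gave -0.047 and -0.033. The share of genes more than 2-fold higher was 24.5% of the large and 24.1% of the small subunit at the lower dose, and 26.5% and 24.1% at the higher. The genes of a subunit are not replicates of each other, and the difference between their medians was not tested. The fold changes within each spread with an SD of 0.99 (n = 49) for the large and 0.86 (n = 29) for the small subunit at 50 ng/mL. The median GC content of the transcripts was 51.8% for large and 47.6% for small subunit genes. Once the trend with transcript GC content, fitted over all filtered genes, was removed, large minus small was 0.039 and 0.072, so the sign turned.

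The symbol does not give the position of every protein. MRPS30 and MRPS18A lie in the large subunit of the mitochondrial ribosome, and MRPS36 is also known as a subunit of the 2-oxoglutarate dehydrogenase complex. With MRPS30 and MRPS18A counted in the large subunit and MRPS36 in neither (51 and 26 genes), large minus small was -0.34 and -0.032, and 25.5% of the large and 19.2% of the small subunit genes were more than 2-fold higher at the lower dose and 27.5% and 19.2% at the higher. For the difference of medians, leaving out MRPS36 alone gave the same values. MRPS36 had 3.21, 8.30 and 9.45 FPKM (1.34 and 1.53), and MRPL58, a peptidyl-tRNA hydrolase that became part of the large subunit, had 17.0, 20.4 and 21.0 FPKM (0.26 and 0.31, but -0.16 on average with the GC trend removed). The MRPS18 paralogs, which occupy 3 different places in the ribosome, spread widely: MRPS18C was above vehicle at both doses (3.18, 4.98 and 4.98 FPKM, 0.63 at both, but -0.87 on average with the GC trend removed and -0.042 under quantile normalization), MRPS18B slightly below (-0.23 and -0.18, but 0.025 on average under quantile normalization), and MRPS18A lowest.

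By place in the ribosome, the stalk genes MRPL10, MRPL11, MRPL12, MRPL53 and MRPL54 had a median of -0.81 at 50 ng/mL, with 5 of 5 below vehicle, and of -0.44 at 100 ng/mL, with 4 of 5 below. These counts below vehicle were the same under the other 3 scalings. With the GC trend removed the same counts lay below 0, with medians of -0.57 and -0.39. Most genes of each other place also lay below 0 then, so this was not particular to the stalk. The transcripts of the stalk genes had the highest median GC content of the 6 places, 56.4%. The 6 genes around the exit tunnel had medians of -0.085 and -0.041, and among them MRPL45, which ties the ribosome to the inner membrane, and MRPL47 were more than 2-fold higher at both doses. The 6 genes of the central protuberance had medians of 0.32 and 0.34, and 0 were called, but with the GC trend removed they were -0.23 and -0.22, with 6 of 6 below 0. In the small subunit the medians were -0.13 and -0.0080 for 5 genes of the head, of which MRPS9 and MRPS10 were higher, -0.33 and -0.27 for 4 genes of the platform, and 0.42 and 0.46 for 4 genes of the body. With the GC trend removed the platform had the lowest medians of the 6 places, -1.06 and -0.98, with 4 of 4 genes below 0. The tunnel medians were then -0.57 and -0.58, and the head medians -0.57 and -0.45. The body medians turned to -0.31 and -0.33 with the GC trend removed and to -0.10 and -0.14 under quantile normalization. Subunits with a bacterial counterpart (46 genes) and those found only in mitochondria (31 genes) had medians of -0.029 and 0.0063 at the lower and of 0.042 and 0.29 at the higher dose.

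Across the MRP genes the fold change went down as the GC content of the transcript went up. Over the 78 genes Spearman's rho was -0.875 at the lower and -0.876 at the higher dose (-0.896 in the 49 large and -0.804 in the 29 small subunit genes at 50 ng/mL), and it was -0.767 over 12397 filtered genes. These are descriptions across genes of the same libraries, and both doses use the same vehicle. Among the 10 MRP genes under 40% GC the median at 50 ng/mL was 1.53, beside 1.52 for all filtered genes of that range, and 9 were more than 2-fold higher (90.0%, beside 90.1% of all). From 40% to 45% it was 1.45 beside 1.43, with 7 of 12 higher (58.3%, beside 83.3%). From 45% to 50% it was 0.52 beside 1.10, with 3 of 16 higher (18.8%, beside 57.4%), and from 50% to 55% it was -0.18 beside 0.43, with 0 of 18 higher, beside 22.4%. At 55% or more it was -0.72 beside -0.37, with 0 of 22 higher, beside 3.94%, and 2 lower (9.09%, beside 3.65%). The MRP medians were thus close to those of other genes of the same composition below 45% and lay under them from 45% upward, while the share past 2-fold was like that of other genes under 40% and smaller from 40% to 55%. The fold change also went down with the mean level (rho = -0.754, n = 78, beside -0.367 over 12447 filtered genes). Level was not matched in these comparisons, and the vehicle median was 15.8 FPKM for the MRP genes and 2.67 for all filtered genes. The fold change showed little relation to transcript length (0.196) or to the GC content of the promoter (-0.213, n = 69). Between the rhFGF19 libraries it showed little relation to the GC content of the transcript (rho = 0.065). How much of each difference from vehicle goes with base composition rather than with rhFGF19 cannot be told apart with 1 vehicle library.

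With the GC trend of all filtered genes removed, the MRP genes had a median of -0.36 at the lower and -0.32 at the higher dose, and 60 and 58 of the 78 lay below 0. Over all filtered genes the medians were 0.0080 and 0.0050. None of the MRP genes was then more than 2-fold higher at either dose. Of the 12397 filtered genes with a GC content, 3.85% were at 50 ng/mL and 3.39% at 100 ng/mL. More than 2-fold lower were 9 and 7 of the 78 MRP genes, beside 628 and 560 of the 12397. Averaged over both doses the lowest were MRPS6 (-1.60; 15.9, 12.5 and 12.4 FPKM), MRPS14 (-1.53; 8.92, 7.57 and 8.87 FPKM), MRPL57 (-1.32; 34.2, 27.6 and 24.8 FPKM), MRPL46 (-1.26; 5.85, 5.55 and 5.91 FPKM) and MRPS21 (-1.15; 37.6, 29.99 and 33.3 FPKM). With the GC content of the coding sequence in place of the whole transcript, MRPL57 stood at -0.035 and MRPL46 at -0.65, and its GC content in MRPL57 is 64.4% against 48.5% for the transcript. MRPS6, MRPS14 and MRPS21 then stood at -1.46, -0.99 and -1.08. Their transcripts hold less than 50% GC, and they differed little from vehicle as deposited, while most genes of that composition were higher. MRPL39 remained the highest, at 0.91.

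The 2 rhFGF19 libraries were close to each other. For 77 of the 78 MRP genes the log2 difference of 100 against 50 ng/mL was smaller than 0.3, the median was 0.029 and the SD over the genes was 0.18, beside 0.34 over all filtered genes. The median size of the difference, regardless of sign, was more alike, 0.077 beside 0.089. The gene past 0.3 was MRPL53, a stalk protein, with 27.1 FPKM in vehicle, 13.6 at the lower and 33.1 at the higher dose. It lay close to 2-fold below vehicle at 50 ng/mL (-0.99) and above it at 100 ng/mL (0.29), a difference of 1.28 between doses, the only 1 past 2-fold, where 0.852% of all filtered genes were higher and 0.884% lower. MRPL53 overlaps CCDC142 on the same strand (7.41, 6.67 and 5.29 FPKM) and a non-coding gene, AC005041, on the opposite strand (0.69, 1.74 and 0.98 FPKM), and how fragments were divided among them was not tested.

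The spread of levels among the MRP genes was narrower in both rhFGF19 libraries than in vehicle. The SD of the log2 level over the 78 genes was 2.27 in vehicle, 1.53 at the lower and 1.53 at the higher dose. It went the same way over the 79 cytosolic ribosomal protein genes (1.77, 1.37 and 1.37) and over all filtered genes (2.46, 2.06 and 2.07). In vehicle 7 MRP genes reached 100 FPKM and 7 lay under 1 FPKM, and in each rhFGF19 library 3 reached 100 FPKM and 1, MRPL42, lay under 1 FPKM. The order of the levels was largely kept, with Spearman's rho over the 78 genes of 0.942 and 0.950 between vehicle and the 2 doses and 0.988 between the doses. Together the MRP genes took 0.854% of all FPKM in vehicle, 0.720% at the lower and 0.733% at the higher dose.

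The other genes of mitochondrial translation were described from lists. Mitoribosome subunits with other symbols also went both ways. DAP3 and PTCD3 of the small subunit were higher (7.76, 15.7 and 15.0 FPKM, and 0.69, 2.6 and 2.14 FPKM), with DAP3 under 2-fold at 100 ng/mL (0.94). GADD45GIP1 of the large subunit (91.4, 47.7 and 52.8 FPKM), AURKAIP1 (103, 59.7 and 62.9 FPKM) and CHCHD1 (32.6, 25.3 and 25.9 FPKM) lay below vehicle and did not pass 2-fold. With the GC trend removed DAP3 turned to -0.15 on average and PTCD3 came to 0.19. GADD45GIP1, AURKAIP1 and CHCHD1 then stood at -0.53, -0.18 and -1.57.

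The 12 translation factors had higher medians than the ribosomal proteins they work with, 1.44 and 1.46, and 8 (66.7%) were more than 2-fold higher at both doses, where 39.4% and 38.5% of all filtered genes were. Averaged over both doses the highest was MTRF1, a release factor (0.35, 1.51 and 2.14 FPKM), though MTIF2 and GFM2 lay above it at 50 ng/mL. MTRF1, like MRRF (0.32, 1.03 and 1.03 FPKM), lay below 0.5 FPKM in vehicle and passed the filter through the rhFGF19 libraries, so both had to be higher. The lowest was TACO1, a translational activator of cytochrome c oxidase subunit I (61.7, 39.3 and 39.8 FPKM, -0.65 and -0.63). The median GC content of this list was 44.1%, beside 50.5% for the MRP genes, and with the GC trend removed its medians were 0.051 and 0.17.

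Of 25 assembly factors 24 passed the filter (METTL15 had 0.11, 0.27 and 0.48 FPKM). Their medians were -0.21 and -0.25, and 5 (20.8%) were more than 2-fold higher at the lower and 6 (25%) at the higher dose, smaller shares than the 39.4% and 38.5% of all filtered genes. The highest was FASTKD2 (0.31, 1.48 and 1.46 FPKM), which, with GTPBP10 (0.18, 0.68 and 0.67 FPKM), also passed the filter only through the rhFGF19 libraries. The lowest was MRM1, which methylates the large rRNA (22.5, 12.5 and 14.4 FPKM, -0.84 and -0.64). Of 7 genes of mitochondrial transcription and RNA binding 6 passed (MTERF1 had 0.28, 0.54 and 0.61 FPKM), with medians of 1.60 and 1.69. At both doses 4 were higher (66.7%, beside 39.4% and 38.5% of all filtered genes). Quantile normalization gave medians of 0.72 and 0.82. With the GC trend removed the medians were 0.18 and 0.29, with 0 higher (beside 3.85% and 3.39%) and 1 lower (beside 628 and 560 of 12397 genes). Averaged over both doses TFB2M, which starts transcription with the polymerase, was highest (0.69, 3.79 and 2.67 FPKM), though TFAM lay above it at 100 ng/mL (1.95 against 1.81). POLRMT, the polymerase itself, was lowest (19.1, 10.7 and 11.4 FPKM, -0.83 and -0.74).

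The 13 mRNAs that the mitochondrial ribosome translates were all above vehicle at both doses, and 0 passed 2-fold. Their log2 fold changes ran from 0.30 (MT-CO3) to 0.80 (MT-ND4) at 50 ng/mL, with medians of 0.54 and 0.65, and their share of all FPKM was 7.07% in vehicle, 11.4% at the lower and 12.0% at the higher dose. With the GC trend removed 13 of 13 lay below 0, with medians of -0.72 and -0.65, so their direction turned, whereas it held under the other 3 scalings apart from 1 mRNA at 0 under quantile normalization. The mitochondrial rRNAs, which poly(A) selection captures only in part, had 88.7, 241 and 243 FPKM (MT-RNR1) and 197, 602 and 603 FPKM (MT-RNR2). The 79 cytosolic ribosomal protein genes, the counterpart outside mitochondria, had medians of -0.42 and -0.35. These were below those of the MRP genes except under quantile normalization (-0.028 and 0, beside -0.10 and -0.034). At the lower dose 7 of the 79 were higher (8.86%, beside 39.4% of all filtered genes) and 1 lower (beside 1.78%). At the higher dose 9 of the 79 were higher (11.4%, beside 38.5%) and 1 lower (beside 1.58%). With the GC trend removed they stood at -0.73 and -0.65. They took 7.84%, 6.35% and 6.46% of all FPKM.

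Promoters were looked at because genes of the mitochondrial ribosome are known to share factors of housekeeping genes. RefSeq promoter sequences (GRCh38.p14, from 250 bases before to 50 after the start) were matched by symbol for 69 of the 78 MRP genes. On either strand the ETS core CCGGAAG, which the nuclear respiratory factor GABP binds, was found in 29 (42.0%), beside 20.2% of 9028 filtered genes and 10.3% of 35116 genes. The YY1 core AAGATGGCG was found in 18.8%, beside 4.26% and 1.75%, and the NRF1 core GCGCATGC in 8.70%, beside 5.78% and 3.05%. The shares were alike in both subunits for the ETS core, 40.5% of the large and 44.4% of the small. These are matches of letters and show no binding. At 50 ng/mL MRP genes with the ETS core had a median of 0.26 and those without it of -0.034 (log2), a difference that was not tested.

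The 120 bases just before the RefSeq start of the 4 genes at the extremes are shown to set against their coding sequences, with the ETS core in capitals where it was found. They are at chr21:25607482-25607601 (MRPL39), chr16:370539-370658 (MRPL28), chr13:40771191-40771310 (MRPS31) and chr6:43687792-43687911 (MRPS18A), all on the minus strand. RefSeq and GENCODE v29 starts differ for a pair of them. The MRPL28 stretch lies inside the GENCODE gene given above, and the MRPL39 stretch as printed begins outside its gene and ends inside it. The other 2 stretches lie just outside. Their GC content was 66.7%, 63.3%, 71.7% and 63.3%, so the genes with GC-poor coding stretches had promoters at least as rich in GC as the others. The core was found in the promoters of MRPS31 and MRPS18A, within the bases shown, and in that of MRPL28, outside them, and not in that of MRPL39, so it was found in genes above and below vehicle.
MRPL39: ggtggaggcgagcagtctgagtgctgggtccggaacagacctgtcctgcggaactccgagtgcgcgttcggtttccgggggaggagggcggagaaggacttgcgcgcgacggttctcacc
MRPL28: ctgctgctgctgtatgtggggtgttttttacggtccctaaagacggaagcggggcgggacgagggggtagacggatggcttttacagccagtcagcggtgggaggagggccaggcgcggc
MRPS31: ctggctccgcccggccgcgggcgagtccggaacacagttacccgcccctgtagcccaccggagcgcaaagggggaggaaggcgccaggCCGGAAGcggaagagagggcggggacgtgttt
MRPS18A: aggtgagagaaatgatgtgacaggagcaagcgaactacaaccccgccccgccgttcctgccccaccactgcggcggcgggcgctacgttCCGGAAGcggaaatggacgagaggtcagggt

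Shared positions limit some of these values. Of the 78 MRP genes 38 overlap another listed gene, 29 of them 1 on the opposite strand, and for 25 the other gene passed the filter. Whether the library kit or the counting used strand is not given in the sources used here, so fragments of overlapping genes could not be told apart. MRPS24 lies within the readthrough gene URGCP-MRPS24 (3.89, 0.49 and 1.15 FPKM), and MRPL28 overlaps PGAP6. Pseudogenes named after 9 MRP genes are listed, 12 in all, of which 2 reached 1 FPKM. For the 34 genes with neither, 7 were more than 2-fold higher and 1 lower at 50 ng/mL, beside 39.4% and 1.78% of all filtered genes. Large minus small (24 and 10 genes) was -0.75 at 100 ng/mL, beside -0.16 for all MRP genes.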

How the data were processed

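LX-2 RNA was sequenced from poly(A) libraries, and the authors deposited 1 FPKM value per gene and library, written to 2 decimals. The submitters' processing notes name HISAT2 2.0, StringTie 1.3.0 and Bowtie 0.12.2 and the builds hg19 and mm8, without roles, whereas the coordinates of 78 of 78 MRP genes overlapped the same genes in GENCODE v29 on GRCh38. The study's methods speak of logCPM, which was not used here. The depth is unknown. Fold changes were differences of log2(FPKM + 0.1) between single libraries over the 12447 genes that averaged 0.5 FPKM or more, called past 2-fold. The deposited values were not rescaled. GC content and length were medians over GENCODE v29 transcripts, found for all 78 MRP genes, and trends were removed by locally weighted regression (span 0.3). The procedure was tested on simulated data with few changed genes, raised low levels and GC content drawn independently of level and change. In the libraries here many genes differed and many levels were low, so that test does not cover the calls or the trend removal in them. Python 3.11.15, NumPy 2.4.6, pandas 2.3.3, SciPy 1.17.1, statsmodels 0.14.6 and matplotlib 3.10.9 were used.

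The MRP genes and the lists of subunit places, bacterial counterparts, subunits with other symbols, translation factors, assembly factors, mitochondrial transcription, mitochondrially encoded mRNAs, cytosolic ribosomal proteins and cell markers were chosen with earlier results of these data known. In each subunit the 4 highest and 4 lowest by fold change averaged over both doses and the 3 highest and 3 lowest by level were named, with the MRPS18 paralogs, MRPS30, MRPS36 and MRPL58, genes past 2-fold between doses, and at most 5 each way past 2-fold once the GC trend was removed. Other genes named were chosen after their values were seen. In the lists the highest and the lowest by fold change averaged over both doses were named. Another 13 settings (pseudocounts, filters, scalings, trends, membership and the threshold) were tried, and 2 more were chosen after seeing the data.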

Additional observations from a re-analysis of the deposited data

Results flagged for a closer look

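MRPL53 went in opposite directions at the 2 doses, with log2 values against vehicle of -0.99 (50 ng/mL) and 0.29 (100 ng/mL), and this difference was not tested, since each dose has 1 library. Among the listed pseudogenes, which no comparison used, MRPS31P4 was listed at 0.58 FPKM in vehicle and at 1.86 and 2.64 FPKM in the 50 and 100 ng/mL libraries. Its parent gene MRPS31 had 1.90, 6.72 and 5.52 FPKM, and how fragments were shared between the 2 genes was not tested.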

How the results depend on the processing

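No paired analysis was possible because there is 1 library per group and no result comes from a test, and for the same reason no library could be left out. A value was said to move where it changed by more than 0.18 on the log2 scale, the SD over the MRP genes of the difference between the rhFGF19 libraries, and a count where it changed by more than 1.5 times. Values are given below for 50 and then 100 ng/mL. Another pseudocount (0.01) and a filter of 1 FPKM moved none of the summary values, and a pseudocount of 1 left 1 gene lower at 50 ng/mL. Leaving out the filter could move none of them, since all 78 MRP genes had passed it.

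Setting the median ratio to vehicle to 0 gave medians of -0.19 and -0.048, 9 and 6 genes lower, and median levels of 17.4 and 18.1 FPKM for the large and 11.1 and 11.3 FPKM for the small subunit. TPM left 0 lower at 50 ng/mL, and median levels in vehicle and at both doses of 77.0, 73.8 and 74.96 for the large and 29.8, 47.2 and 47.0 for the small subunit. Quantile normalization left 6 and 7 higher and 0 lower at 50 ng/mL, a median of -0.034 at 100 ng/mL, large minus small of -0.098 at 50 ng/mL and a small subunit level of 10.5 in vehicle. These scalings set the median of all filtered genes, 0.62 at 50 ng/mL as deposited, to 0.40, 0.77 and 0.11.

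Removing the GC trend gave medians of -0.36 and -0.32, 0 and 0 genes higher, 9 and 7 lower, and large minus small of 0.039 and 0.072. Removing the length trend gave medians of -0.30 and -0.21, 21 and 20 lower, and 13 higher at 100 ng/mL. Chosen after seeing the data, the GC trend of the coding sequence gave -0.41 and -0.35, 0 and 0 higher, 13 and 9 lower, and large minus small of 0.063 and 0.14. Also chosen after seeing the data, GC and then length trends gave -0.28 and -0.28, 0 and 0 higher, 8 and 7 lower, and large minus small of 0.12 and 0.14. MRPS30 turned from 1.47 to -0.027 and MRPS36 from 1.44 to -0.041 without the GC trend, and MRPS36 to -0.065 without that of the coding sequence. Without the GC trend MRPL33 also turned from 1.06 to -0.36 on average, MRPS9 from 1.26 to -0.088 and MRPL13 from 1.41 to -0.083. Of the named genes under 2-fold as deposited, MRPS18C turned from 0.63 to -0.87, MRPS5 from 0.76 to -0.29 and MRPL58 from 0.29 to -0.16 without the GC trend, while MRPL46 and MRPL51 turned to 0.084 and 0.034 in TPM, and MRPL51 and MRPS18B to 0.19 and 0.025 under quantile normalization.

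Without genes that overlap another or have a pseudogene, 34 remained. The counts were then 7 and 8 higher (beside 39.4% and 38.5% of all filtered genes) and, for 50 ng/mL, 1 lower (beside 1.78%). None passed 2-fold between doses, large minus small was -0.75 at 100 ng/mL, and the small subunit levels were 7.04, 11.5 and 11.4 FPKM. By position, or without MRPS36, the small subunit level in vehicle was 11.4 FPKM. At 1.5-fold 29 were higher at 50 ng/mL, and 18 and 19 lower. The cause was not tested for any of these, beyond the smaller number of genes and the lower threshold. Shares of all filtered genes were not computed at 1.5-fold or for the trends with length or coding-sequence GC content. The other 147 summary values stayed within these limits, among them those without the filter, which could not move. Some still changed sign within them, such as the median at 50 ng/mL, which went from 0.040 to -0.10 under quantile normalization. The limits that remain are 1 library per group, unknown depth, levels under 1 FPKM for 7 MRP genes in vehicle, and doses and times that differ between the sample records.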
